A study of Rattus norvegicus with 36 samples.

Results

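In 29 genes, transcript abundance at least doubled in cultured rat pineal glands treated with norepinephrine (NE) and in glands treated with dibutyryl cyclic AMP (DBcAMP), while the group medians of the same genes differed little between night and day in the intact animal. The genes were chosen by a fixed rule on CPM, a gene's read-pairs scaled to a common total of read-pairs on genes per library, with each group represented by the median of its 3 libraries. All ratios of medians were taken as log2 of the CPM of one group plus 0.5 over the CPM of the other plus 0.5. A gene entered when this log2 ratio to untreated glands was at least 1 for NE and for DBcAMP, when its NE median was at least 1 CPM, and when the night/day log2 ratio stayed within 0.5 of 0 in both Control and Sham animals. The rule found 29 of 29516 annotated genes, of which 24811 had a read-pair in any library.

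RNA was measured in 36 libraries from Sprague-Dawley rats, all kept in a light:dark cycle with a longer light phase. In the in vivo experiment 40-day-old rats of both sexes gave glands at ZT7, the middle of the day, or at ZT19, midnight. They were rats that had no operation (Control), a sham operation (Sham), decentralization of both superior cervical ganglia (DCN) or removal of both ganglia (SCGX). The operations were made on postnatal day 5, and 3 libraries were made for each operation and time, 24 in all. In the in vitro experiment, glands of adult females were cultured for 48 hours and then left untreated or exposed to 1 µM NE or 500 µM DBcAMP for 6 hours, with 3 libraries each. Every replicate was a pool of glands, so the spread between replicates is a spread between pools, and single animals were not measured. Finally, 1 pineal library from each of mid-day and midnight was compared with 1 library of RNA mixed from 15 other tissues. Neonatal surgery leaves the gland without its sympathetic drive from early life onward. Development without this drive and its absence on the day of collection therefore cannot be told apart. The authors state that the sympathetic nerves in the gland remain after DCN and are lost after SCGX.

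In the rat, the pineal gland receives its main input from sympathetic nerves of the superior cervical ganglia. At night these nerves release norepinephrine, which acts on adrenergic receptors of the pinealocyte and raises intracellular cyclic AMP. Cyclic AMP activates protein kinase A and CREB-dependent transcription, the route by which melatonin synthesis is switched on at night. DBcAMP is a cyclic AMP analog that enters cells and so acts below the receptor. Many genes that respond to either agent in culture also rise at night in the animal, and the genes described here responded in culture with a small night/day ratio in the animal.

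The deposited tables list Ensembl identifiers without gene symbols, and 0 of them could be matched to a symbol here. The members' protein products and pathways are therefore not given, and the pinealocyte identity of the libraries was not checked against marker genes. Members are called by their rank in the NE log2 ratio, from member 1, the most induced on this scale, to member 29. The order depends on the added 0.5 CPM, which compresses ratios of genes of low abundance. Without it the NE fold was 5.57 for member 1, 10.2 for member 3 and 25.3 for member 5. Identifiers are given for 4 of them, namely the pair with the largest smaller-of-both induction and the pair with the largest decrease after decentralization, a choice made after the values were seen. ENSRNOG00000008417 is member 1, ENSRNOG00000021294 is member 2, ENSRNOG00000016483 is member 7 and ENSRNOG00000024120 is member 8.

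Library totals on genes were between 12985072 and 18504240 read-pairs in vivo, between 12556861 and 18524435 in vitro, and between 28836161 and 38574186 for the pineal and mixed-tissue libraries. In a principal component analysis of the 24 in vivo libraries on the 500 genes of largest variance, the second component carried 20.6% of the variance. DCN day replicate 1 (score 41.6) and Sham night replicate 3 (score 40) stood apart on it, with the other libraries between -11.8 and 0.36. The comparisons of DCN and SCGX with Sham were repeated without them, a choice made after seeing the data.

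The members were a small share of the genes that both treatments induced. Of 324 genes that met the culture criteria, 245 were higher at night by at least 0.5 on the log2 scale in both Control and Sham, 5 were lower at night in both, and 45 passed 0.5 in a single group or in opposite directions. The members were the remaining 29. Just inside the limits lay a member with an NE log2 ratio of 1.005, and just outside a gene at 0.9994. For DBcAMP these values were 1.061 and 0.8726, for the NE median 1.054 and 0.8442 CPM, and for the larger night/day log2 ratio 0.4955 and 0.5052.

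**Figure D1:**
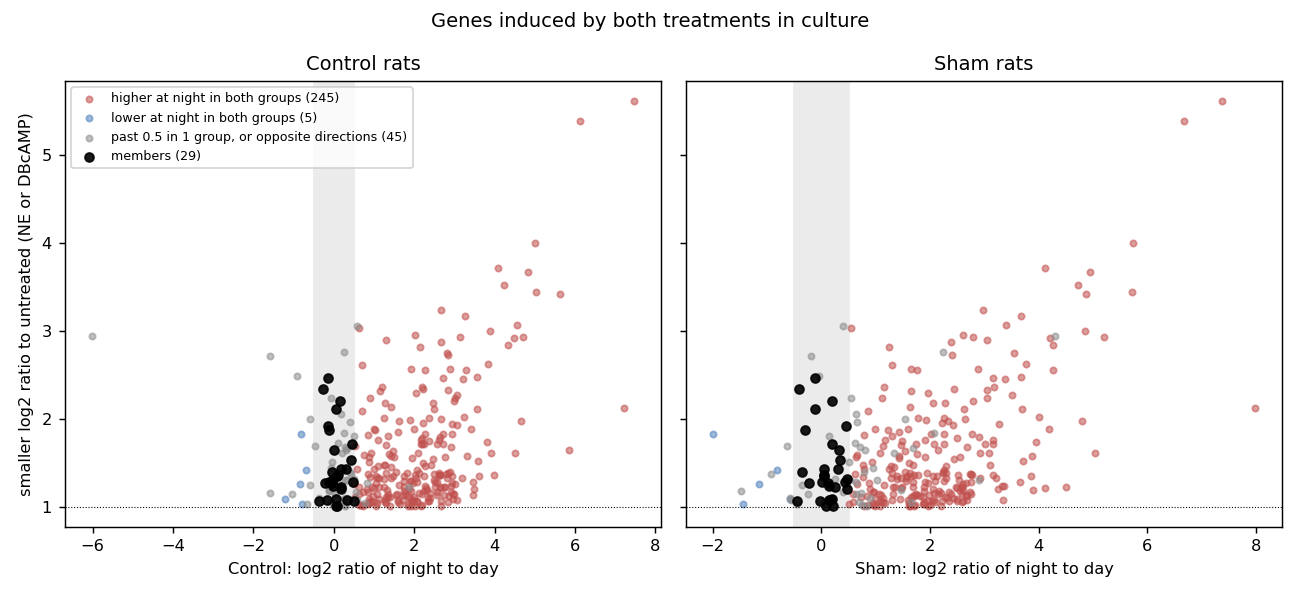
Each point is 1 of the 324 genes induced by both treatments, with the night/day log2 ratio of group medians on the x axis (Control left, Sham right) and the smaller of the NE and DBcAMP log2 ratios to untreated glands on the y axis. The 29 members (black) fall in the grey band within 0.5 of 0 by the rule, at induction between 1.005 and 2.46, and the 245 genes higher at night in both groups lie to its right.

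Induction of the members in culture was moderate. The NE log2 ratio was between 1.005 and 2.46 with a median of 1.36, and the DBcAMP log2 ratio was between 1.06 and 2.90 with a median of 1.64. Among the 245 genes that were also higher at night, the medians were 1.53 for NE and 1.501 for DBcAMP. Over the 13239 genes with an NE median of at least 1 CPM, the median log2 ratios were -0.11 and -0.17. These values chose the members and carry no test.

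Members 1 to 4 were induced at least 2 log2 units by both agents on the scale with 0.5 CPM added. Member 1 (ENSRNOG00000008417) was measured at 30.8, 35.1 and 35.8 CPM in untreated glands, at 195, 153 and 232 CPM with NE and at 243, 275 and 266 CPM with DBcAMP. Every treated library was thus well above every untreated library, and the DBcAMP libraries were all above the NE libraries. In the 24 in vivo libraries the same gene ranged from 34.6 to 50.9 CPM, with no library of any group near the treated cultures. Its mean ± SD in Control was 43.5 ± 3.2 CPM by day and 38.5 ± 3.7 CPM at night (n = 3 each).

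Member 2 (ENSRNOG00000021294) was a gene of low abundance. It stood at 0.979, 1.49 and 1.404 CPM in untreated glands, at 10.5, 6.52 and 9.13 CPM with NE and at 12.98, 15.15 and 9.643 CPM with DBcAMP. In vivo it lay between 0.503 and 1.94 CPM, so the untreated and in vivo ranges overlapped and the treated libraries were all higher. Member 4 was abundant, at 96.7 to 111 CPM in untreated glands, 412 to 578 CPM with NE and 484 to 580 CPM with DBcAMP. Its in vivo libraries spanned 99.5 to 144.5 CPM and so lay from within the untreated range to somewhat above it, well below every treated library. Member 3 was near the limit of detection before treatment, at 0.0677 to 0.699 CPM, and reached 2.04 to 4.13 CPM with NE and 4.50 to 6.37 CPM with DBcAMP.

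**Figure D2:**
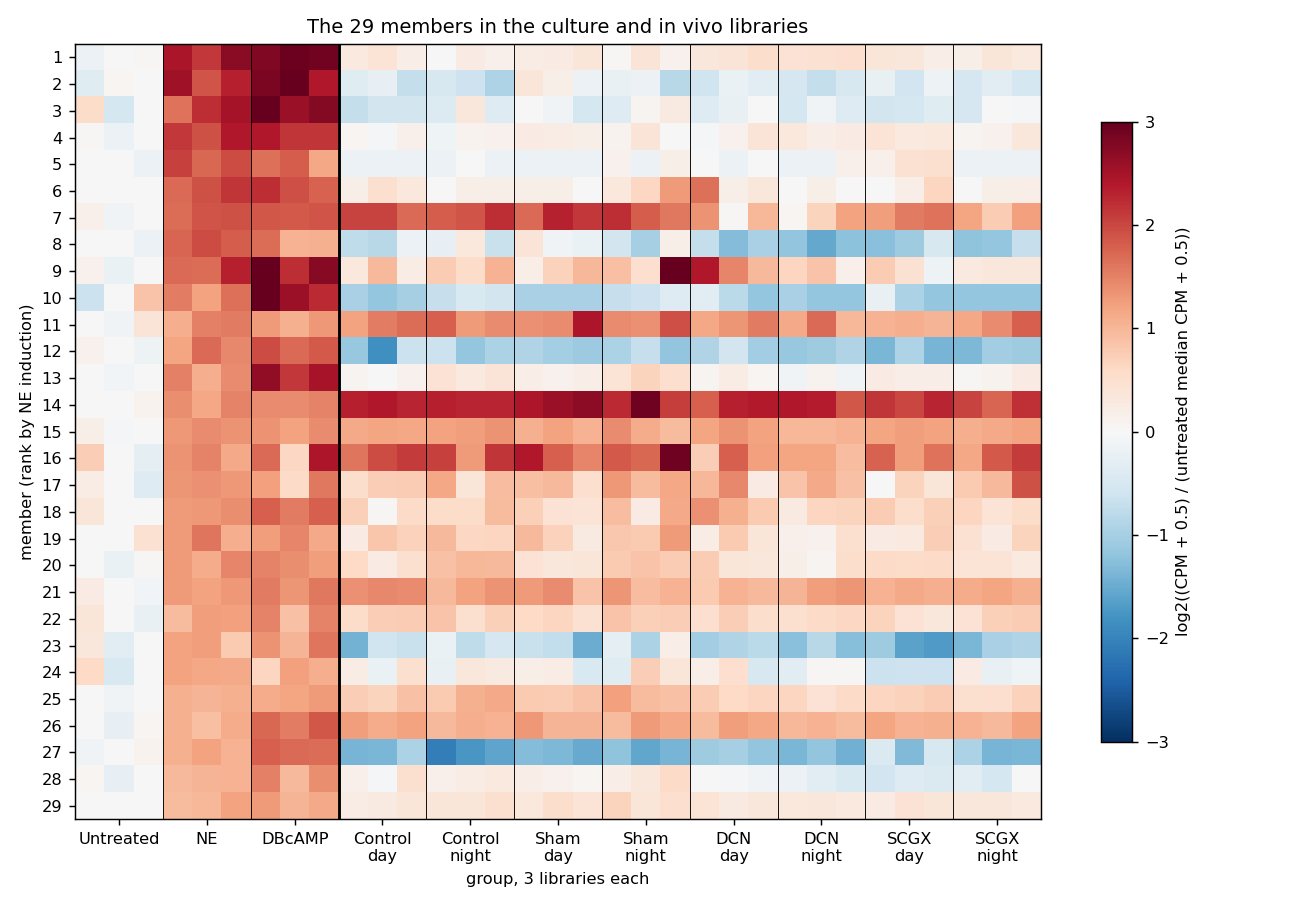
Rows are the 29 members ordered by NE induction and columns are single libraries (3 per group), colored by the log2 ratio of CPM plus 0.5 to the untreated median plus 0.5. The NE and DBcAMP columns are red for every member by the rule, whereas the in vivo columns to the right of the heavy line range from blue (members 10, 12 and 27) to red (members 7, 14 and 16) with little change from day to night.

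All 3 NE libraries lay above all 3 untreated libraries for 29 of 29 members, and all DBcAMP libraries did so for 28. Among the 13757 genes with a culture median of at least 1 CPM, 14.5% had NE wholly above untreated and 17.3% had DBcAMP wholly above untreated. Since the rule used these libraries, nothing is read from the difference. The exception was member 16, for which DBcAMP replicate 2 (20.6 CPM) fell below untreated replicate 1 (22.3 CPM). Member 6 had no read-pair in any untreated library. Against a floor of 3 read-pairs over the untreated group it was at least 22.2-fold higher with NE and at least 23.6-fold higher with DBcAMP, although its level remained between 1.12 and 1.83 CPM.

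Levels between genes were compared on the deposited RPKM scale, which divides by gene length. With NE the members' medians ran from 0.577 to 209 RPKM with a median of 15.8 RPKM, against 12.3 RPKM for all 13239 genes with an NE median of at least 1 CPM. With NE, 16 of the 29 members reached 10 RPKM and 3 stayed under 1 RPKM. The highest were member 4 at 209 RPKM and member 20 at 178 RPKM, followed by member 15 at 111 RPKM and member 25 at 103 RPKM. Member lengths had a median of 1962 bases and a range of 261 to 8147 bases, close to the median of 2037 bases for those genes.

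DBcAMP gave the higher median in 21 of the members. The NE ratio was lower than the DBcAMP ratio by at least 0.5 log2 units in 6 members and by at least 1 in members 9, 10 and 13. Member 13 read 73.05, 54.65 and 68.51 CPM with NE and 161, 112 and 143 CPM with DBcAMP, with 23.8 to 25.5 CPM in untreated glands. The agents differed in it without overlap, and the larger response was to the analog. Member 8 (ENSRNOG00000024120) was alone among the members in having an NE ratio at least 0.5 above its DBcAMP ratio, at 7.51, 8.75 and 7.91 CPM with NE, 7.17, 4.42 and 4.48 CPM with DBcAMP and 1.62 to 1.90 CPM untreated. All DBcAMP libraries exceeded all NE libraries in 9 members, where 10.1% of the culture-expressed genes did so, and the reverse held for 1 member, where 19.1% did so. Both treatments entered the rule, so these are descriptions of the members. The agents were given at 1 µM and 500 µM, single and different doses, so the values stand side by side without a comparison of potency.

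In intact glands the members' levels differed in their place on the culture scale. For 15 members all 4 intact medians (Control and Sham, day and night) lay between the untreated median and the lower treated median. For 5 members (8, 10, 12, 23 and 27) they were all below the untreated culture. For 3 members (11, 14 and 16) they were all at or above the lower treated median, and for 6 they straddled one of these limits. These places did not all hold in the single pineal libraries. There member 23 read 17.7 CPM at mid-day and 21.0 CPM at midnight, above its treated medians of 12.9 and 14.3 CPM. Member 8 read 4.02 CPM at mid-day, above its untreated median of 1.89 CPM, and 0.952 CPM at midnight. Members 10, 12 and 27 were below untreated culture at both times. Member 1 read 12.7 and 13.4 CPM, below its untreated median of 35.1 CPM. The Control day median was at least 2-fold above untreated culture on the pseudocount scale in 7 members, where 7.55% of all genes were, and at least 2-fold below in 2 members, where 7.7% were. The median log2 ratio of Control day to untreated culture was 0.31 for the members and 0.06 over all 13239 genes. The untreated libraries entered the rule, which favors a low untreated level, so nothing is read from these differences. The culture and in vivo experiments differed in age, sex and time out of the animal. The authors also pooled and sequenced the libraries of each experiment separately, and these differences cannot be told apart.

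Member 14 was the most extreme on the upper side. It read 74.0, 74.9 and 80.5 CPM in untreated glands, 167 to 210 CPM with NE and 202 to 210 CPM with DBcAMP, and 364 to 399 CPM by day and 367 to 382 CPM at night in Control rats. Every Control library was thus above every treated culture. Member 16 was also high in the animal, with 10.8 to 22.3 CPM untreated, 29.9 to 38.4 CPM with NE, 20.6 to 73.7 CPM with DBcAMP and 33.1 to 60.1 CPM over the 6 Control libraries. Member 27 was the most extreme on the lower side, with 19.9 to 22.9 CPM untreated, 44.3 to 49.8 CPM with NE, 69.5 to 75.3 CPM with DBcAMP and 4.68 to 10.8 CPM in Control. Member 12 also lay lower in Control, at 0.453 to 1.69 CPM against 2.59 to 3.22 CPM untreated.

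**Figure D3:**
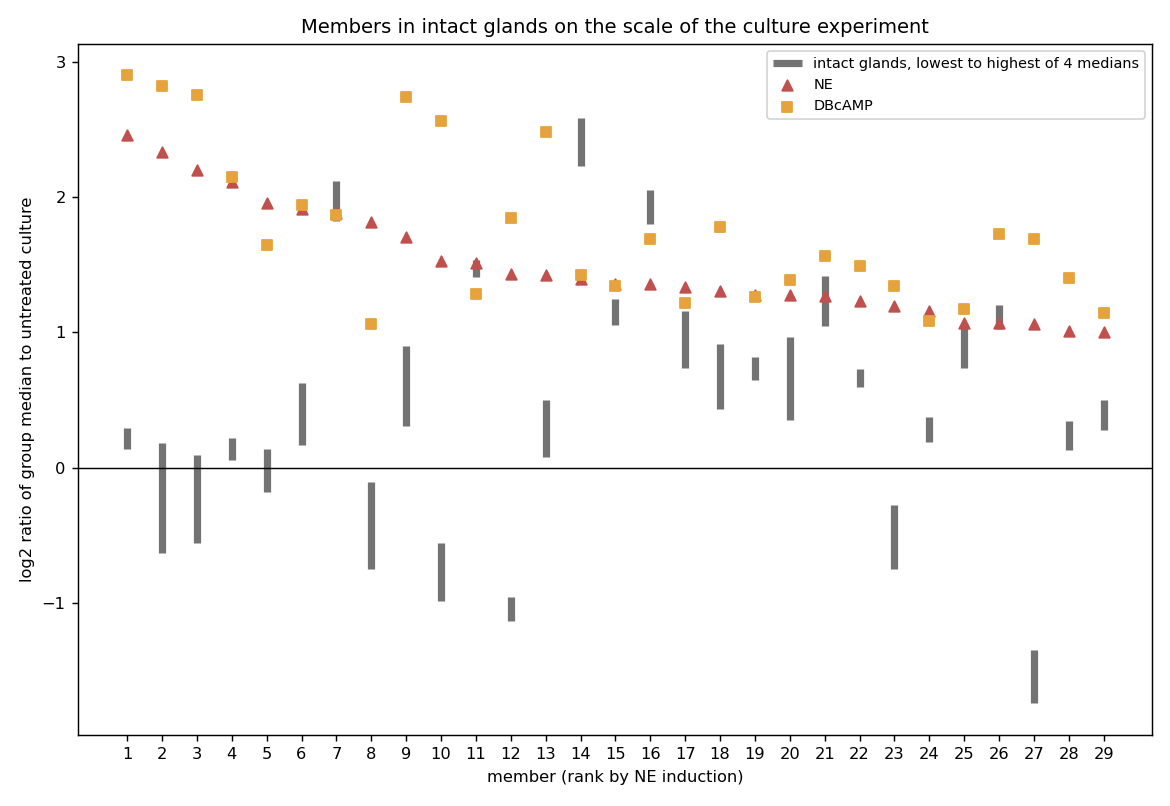
For each member (x axis, rank by NE induction) the NE median (triangle), the DBcAMP median (square) and the range of the 4 Control and Sham medians (grey bar) are shown as log2 ratios to the untreated median, drawn as 0. Members 11, 14 and 16 have grey bars at or above the lower treated marker, and members 8, 10, 12, 23 and 27 have bars wholly below 0.

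The night/day criterion set a limit on the ratio of group medians and did not require equal levels. All night libraries lay above all day libraries in both Control and Sham for 3 members (10, 13 and 20), against 11.5% of the culture-expressed genes. In Control alone night was wholly above day in 6 members (16.5% of genes) and day wholly above night in 4 (39.7%), and in Sham night was wholly above day in 7 (14.5%) and day in 0 (31.5%). The rule used these libraries, so the counts are descriptive. Over all genes with an NE median of at least 1 CPM, the median night/day log2 ratio was -0.19 in Control and -0.15 in Sham, so the limits of the rule were not centered on the typical gene.

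Member 20 was the clearest of these. It read 154.6, 119.5 and 142.4 CPM by day and 185.6, 201.7 and 198.6 CPM at night in Control, and 138.1, 128.5 and 129.6 CPM by day and 175.7, 185.3 and 172.2 CPM at night in Sham. Its night/day log2 ratios of 0.48 and 0.44 placed it just under the limit. In glands without sympathetic drive the night libraries were not the higher ones, with 171.7, 130.1 and 128.1 CPM by day and 114.4, 107.9 and 145.8 CPM at night in DCN, and 149.7 to 151.8 CPM by day and 124 to 136 CPM at night in SCGX. Member 13 read 25.7 to 27.5 CPM by day and 31.3 to 34.3 CPM at night in Control, and 27.5 to 29.1 CPM by day and 33.9 to 40.7 CPM at night in Sham, with no overlap in either group. In DCN it read 26.4 to 29.5 CPM by day and 23.5 to 27.2 CPM at night, and in SCGX 28.8 to 30.2 CPM by day and 25.7 to 29.9 CPM at night.

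For members of low abundance the criterion was less strict than it appears, because the added 0.5 CPM compresses ratios. Every in vivo group median was under 1 CPM in 6 members (3, 5, 6, 10, 19 and 24), and 10 members had every intact median under 2 CPM. In member 10, Control libraries held 1, 0 and 1 read-pairs by day and 3, 5 and 4 read-pairs at night, which gave a log2 ratio of 0.43 on this scale. Small night/day differences in such members were not detectable at this depth.

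**Figure D4:**
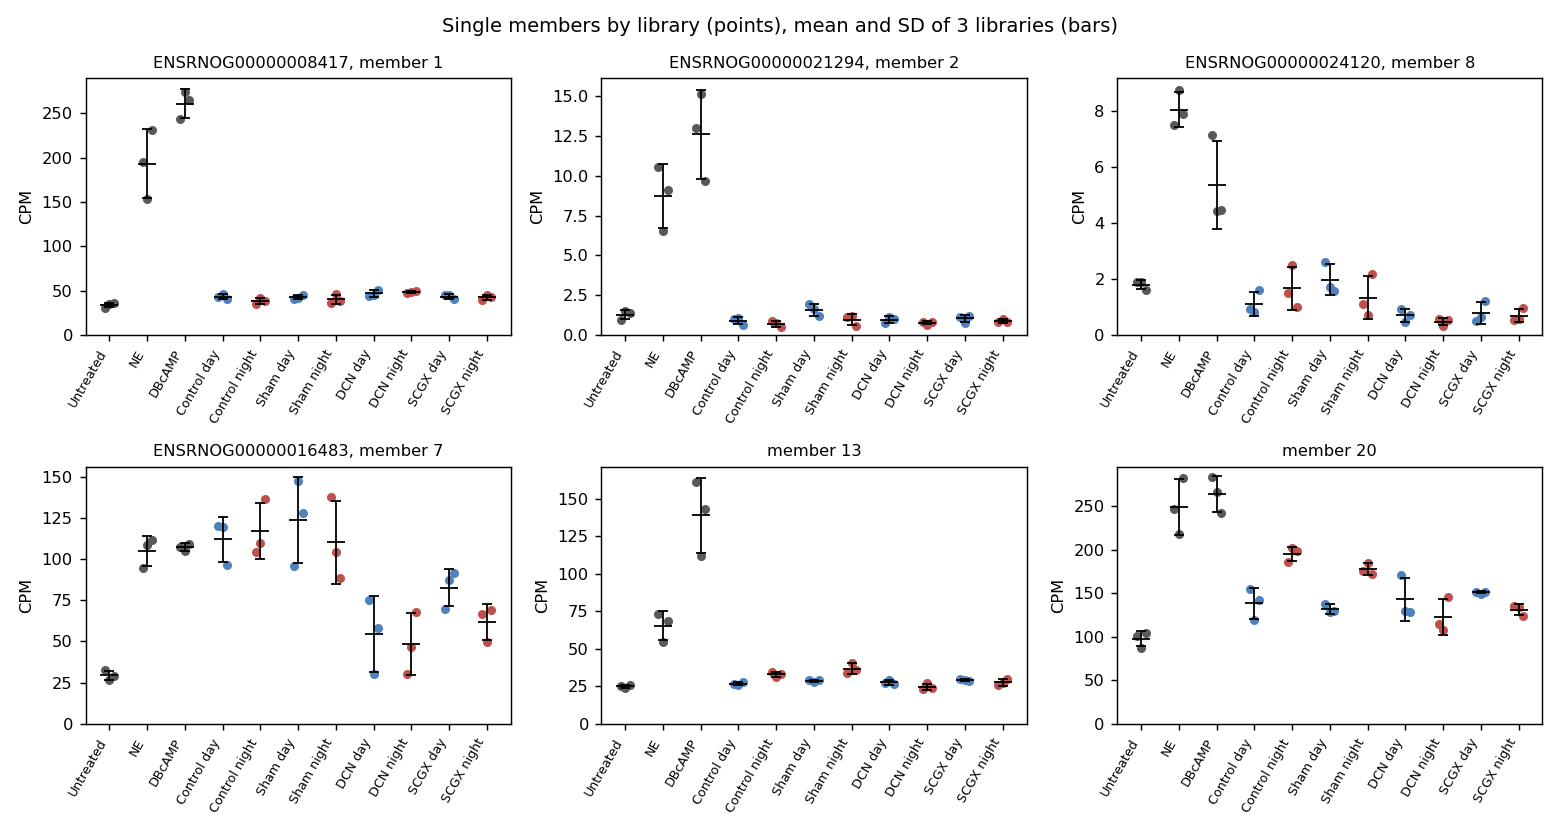
CPM in each culture and in vivo library (points; blue day, red night, grey culture) with the mean and SD of 3 libraries (bars) for members 1, 2, 8, 7, 13 and 20. Members 1 and 2 are high in treated cultures alone, members 7 and 8 are lower in DCN than in Sham, and members 13 and 20 are higher at night than by day in Control and Sham without overlap.

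Night/day differences were then tested in DCN and SCGX libraries, which the rule had not used, with edgeR's quasi-likelihood test and Benjamini-Hochberg adjustment over all tested genes, calling an adjusted p under 0.05. In DCN, 0 of 24 tested members differed between night and day, and 0 of 15928 genes did (0%). At an unadjusted p under 0.05 there were 4 members and 1431 genes, and DESeq2 called 0 members and 119 genes. The median night/day log2 fold change of the members was -0.17. In SCGX, 0 of 24 tested members were called, where 1.79% of 15551 genes were, and the members' median was -0.09. There, 7 members and 2800 genes had an unadjusted p under 0.05. DESeq2 called 611 genes in SCGX, among them members 7 and 20, lower at night with log2 fold changes of -0.46 and -0.24. The remaining 5 members in each of these comparisons had too few read-pairs to be tested.

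The difference in night/day change between DCN and SCGX was also tested. Of the members, 0 of 24 passed, as did 0 of 15779 genes (0%), with 0 members and 1676 genes at an unadjusted p under 0.05 in edgeR, and 0 members and 48 genes called by DESeq2.

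Some members were lower in operated than in Sham glands. The difference between operated and Sham glands was estimated over day and night libraries together with time as a covariate, and 25 of the members could be tested (all but 3, 5, 6 and 10). In DCN, 6 members were lower than in Sham and 0 were higher, against 4.79% lower and 3.86% higher among 16047 genes. The members' median log2 fold change was -0.33, and that of all genes was -0.01. The log2 fold change was negative for 22 of the 25. Members were measured in the same libraries and are not replicates, so counts of signs carry no test. In SCGX, 3 members were lower and 0 higher, against 3.42% lower and 3.78% higher among 15894 genes. Here the members' median was -0.36, that of all genes was -0.03, and 24 of 25 had a negative value. Without both libraries that stood apart the members' median in DCN was -0.40, with 21 of 25 negative, and without Sham night replicate 3 the median in SCGX was -0.31, with 24 of 25 negative. DCN and SCGX were compared with the same Sham libraries, so both sets of values share whatever was particular to those 6 libraries.

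Member 8 (ENSRNOG00000024120) fell the most in DCN. It read 2.62, 1.72 and 1.59 CPM by day and 1.13, 0.703 and 2.20 CPM at night in Sham, and 0.944, 0.474 and 0.711 CPM by day and 0.558, 0.329 and 0.526 CPM at night in DCN. All DCN night libraries were under all Sham libraries, and 2 DCN day libraries lay above the lowest Sham library. The fit gave a log2 fold change of -1.57 (SE 0.30, edgeR adjusted p = 0.0126). In SCGX it read 0.508 to 1.22 CPM by day and 0.539 to 0.967 CPM at night, with a log2 fold change of -1.19 against Sham (SE 0.32, adjusted p = 0.0447 in edgeR). That second call was fragile. It was lost in 10 of the 12 fits that left out 1 library, with adjusted p up to 0.0993, and with Control in place of Sham (log2 fold change -0.99, edgeR adjusted p = 0.0658).

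Member 7 (ENSRNOG00000016483) was lower in both operated groups at a much higher abundance. In Sham it read 95.7, 147 and 128 CPM by day and 138, 104 and 88.2 CPM at night. In DCN it read 75.1, 30.1 and 58.2 CPM by day and 30.4, 46.3 and 68.0 CPM at night, so every DCN library was below every Sham library. The log2 fold change was -1.31 (SE 0.25, edgeR adjusted p = 0.0123). In SCGX it read 69.7, 87.0 and 91.3 CPM by day and 66.5, 49.4 and 69.2 CPM at night, and the SCGX day and Sham ranges overlapped. The log2 fold change in SCGX was -0.79 (SE 0.17, edgeR adjusted p = 0.0168), and in both groups the call was kept whichever library was left out. In untreated cultures this gene stood at 26.8 to 32.4 CPM and in NE-treated cultures at 94.5 to 112 CPM, so Control and Sham glands were near the treated level, untreated cultures were low and DCN glands reached from the untreated level upward.

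Member 28 was the third one called in both groups. It lay between 16.9 and 24.3 CPM in Sham, between 11.7 and 15.98 CPM in DCN and between 10.7 and 16.3 CPM in SCGX, so neither operated group overlapped Sham. The log2 fold changes were -0.56 in DCN (SE 0.12, edgeR adjusted p = 0.0163) and -0.71 in SCGX (SE 0.10, edgeR adjusted p = 0.00251). Both calls were kept whichever library was left out.

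The other calls in DCN, those of members 13, 16 and 25, depended on single libraries. Member 16 had a log2 fold change of -1.003 (SE 0.24, edgeR adjusted p = 0.0285), and its libraries included Sham night replicate 3 at 103 CPM and DCN day replicate 1 at 22.7 CPM, the pair that stood apart. Without both of them its log2 fold change was -0.70 (edgeR adjusted p = 0.0392). Member 25 fell by 0.42 and member 13 by 0.43 on the log2 scale (edgeR adjusted p = 0.0351 and 0.0400). Over the 12 fits that left out 1 library, member 16 was called in 8, member 25 in 6 and member 13 in 5. Without DCN night replicate 1, 2 or 3 the count of called members dropped from 6 to 3. In those fits the calls over all genes dropped as well, from 1387 to 598, 658 and 774. Without both libraries that stood apart 6 members were called (7, 8, 16, 25, 28 and 29), as were 1641 of 15810 genes. Member 13 was thus lost and member 29 gained (edgeR adjusted p = 0.0475). In that fit the log2 fold changes of members 7, 8 and 28 were -1.55, -1.49 and -0.55.

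**Figure D5:**
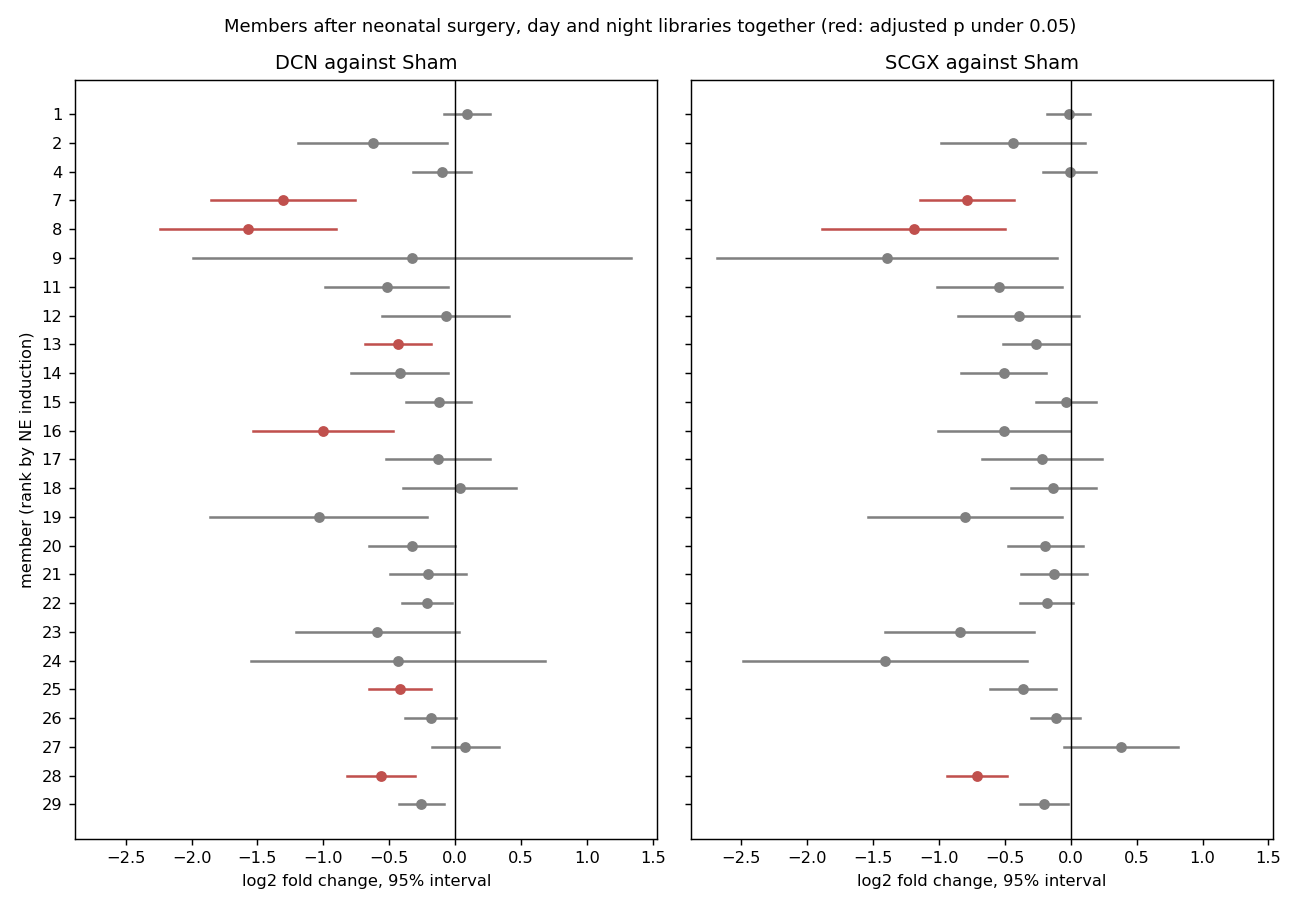
Points are log2 fold changes of DCN (left) and SCGX (right) against Sham for the 25 tested members, with 95% intervals of the edgeR fit over 12 libraries. Red marks an adjusted p under 0.05, with 6 members in DCN and 3 in SCGX, all to the left of 0.

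Separate fits were also made at each time. In night libraries alone 6 members were lower in DCN (7, 13, 16, 20, 25 and 28), where 8.26% of genes were, and 5 were lower in SCGX (7, 13, 20, 25 and 28), where 9.18% were. At night member 20 had log2 fold changes of -0.65 in DCN and -0.54 in SCGX. Without Sham night replicate 3 the night counts were 9 in DCN, where 10.5% of genes were lower, and 7 in SCGX, where 14.7% were. In day libraries alone 0 members were called in DCN, where 1.16% of genes were lower. The log2 fold changes of members 7 and 8 in DCN were nevertheless close at both times. They were -1.23 and -1.52 by day and -1.31 and -1.58 at night, and member 8 was called at neither. Those of members 28 and 16 were smaller by day, at -0.24 and -0.68, than at night, at -0.83 and -1.28. By day member 13 overlapped between DCN (26.4 to 29.5 CPM) and Sham (27.5 to 29.1 CPM). In SCGX by day members 14 and 28 were lower, where 4.81% of genes were, and member 20 was higher, where 6.59% were. Whether the surgical difference itself changed between day and night was not tested, since the rule had used the Sham night and day libraries.

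Control rats, which had no operation, gave a second reference that does not use the Sham libraries. The rule had used the Control libraries too, for their night/day ratio, and the DCN and SCGX libraries were the same in both comparisons. In an alternative added after seeing the data, 9 of 25 members were lower in DCN than in Control (7, 8, 13, 16, 21, 22, 25, 26 and 28), where 10.6% of genes were, and 5 were lower in SCGX (7, 14, 21, 23 and 28), where 7.2% were. In either comparison 0 members were higher. The median log2 fold change of the members was -0.26 in DCN and -0.31 in SCGX, with medians over all genes of 0.02 and 0.01. Members 7 and 28 were called lower in both operated groups against both references, and these comparisons are not independent of each other.

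The genes induced by both agents and higher at night were chosen for a high Sham night level, so their values against Sham are not independent of that choice. Of these 245, 69 were lower in DCN and 36 in SCGX, with median log2 fold changes of -0.88 and -0.63. The members, selected without a night rise, had the smaller medians given above, and a difference between these sets was not tested.

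DCN and SCGX were also compared directly, and 0 of 24 members and 0 of 15779 genes (0%) were called, with 4 members and 2063 genes at an unadjusted p under 0.05, and DESeq2 called 0 members and 273 genes. For member 7 the log2 fold change of SCGX over DCN was 0.51 with a 95% interval from 0.03 to 1.00. For member 16 it was 0.49 with an interval from 0.09 to 0.90, and for member 13 it was 0.16 (0.05 to 0.28). Member 9 went the other way, at -1.08 with an interval from -1.9 to -0.26. Differences of these sizes were therefore not excluded.

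The single pineal and mixed-tissue libraries, made for a separate comparison, give a further view of the members, without replicates and so without a test. Midnight exceeded mid-day by at least 0.5 log2 units in 8 members, where 8.97% of genes did so, and mid-day exceeded midnight by as much in 2 members, where 22% did so. Member 3 went from 0.347 to 3.18 CPM, member 11 from 18.8 to 38.7 CPM, member 14 from 169 to 299 CPM, member 16 from 55.6 to 100 CPM and member 20 from 112 to 185 CPM. Member 8 went the other way, from 4.02 to 0.952 CPM. For these members the criterion of a small night/day ratio, met in Control and Sham with 3 libraries per time point, was not met by this pair of libraries.

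Against mixed tissue the members spread in both directions. Mid-day pineal RNA was at least 2-fold above mixed tissue in 10 members, where 12.8% of genes were, and at least 2-fold below in 9 members, where 15.5% were. The median log2 ratio was 0.50 for the members and 0.11 for all 13239 genes. Member 17 was highest against mixed tissue, at 25.9 CPM in the pineal library and 0.752 CPM in the mixture, followed by member 16 at 55.6 and 3.16 CPM. Member 9 was lowest, at 2.39 CPM in the pineal library and 194 CPM in the mixture.

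Members 9 and 18, which are abundant in mixed tissue, were high in the libraries that stood apart. Of the 9 members at least 2-fold below mixed tissue, 6 were highest of their group in Sham night replicate 3. In DCN day replicate 1 this held for 4, members 6, 9, 10 and 18, and these 4 were highest in both. Members 6 and 10 had few read-pairs, with 17 and 6 in DCN day replicate 1 and 10 and 5 in Sham night replicate 3. The rest of the 9 were not highest in both. Member 9 read 9.21 CPM in Sham night replicate 3 against 0.973 and 1.44 CPM in the other replicates, and 5.03 CPM in DCN day replicate 1 against 1.55 and 2.37 CPM. Member 18, at 229.8 CPM in mixed tissue, read 92.1 and 109 CPM in those libraries. Neither member was called in DCN or SCGX against Sham. The part of other tissue in these libraries was not tested. In bulk tissue, a change in the number of cells that express a gene and a change in its RNA per cell cannot be told apart.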

How the data were processed

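RNA was measured in 36 libraries, which were grouped by their labels. The authors sequenced stranded, ribosome-depleted total RNA and aligned read-pairs with STAR (2.3.1y in the submitters' processing notes) to the rn4 assembly with Ensembl annotation. They deposited counts of read-pairs per gene without normalization. The deposited RPKM values, those counts divided by gene length and library total, served here for gene length and for levels between genes only. Counting leaves out read-pairs shared by several genes, so near-identical copies can be undercounted.

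The members were found on CPM computed from the counts. Members and lists were chosen with earlier results of these data known. Comparisons that the rule had used (treated cultures against untreated, night against day in Control and Sham) were described without tests. The others were fitted over every gene whose normalized counts averaged at least 5, using edgeR 4.0.16 in R 4.3.3 (TMM, quasi-likelihood test with default settings, Benjamini-Hochberg adjustment, calls at an adjusted p under 0.05). The group comparisons used 12 libraries with time as a covariate. DESeq2 1.42.0 was an alternative, and the code was tested on simulated data. Figures were drawn in Python 3.11.15.

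Library totals, which set the precision of the counts, were between 12556861 and 38574186 read-pairs. In the shallowest in vitro library 3 read-pairs correspond to 0.239 CPM.

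Members were to be named by symbol, by lists of roles and by cell type markers. The identifiers could not be paired with symbols here (0 matched), so these lists were not applied. Identifiers are printed for 4 members. Sequences and genome positions are not given for the same reason.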

Additional observations from a re-analysis of the deposited data

How the results depend on the processing

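Under every setting tried for DCN night/day, SCGX against DCN and their difference in night/day change, 0 members were called, leaving out single libraries included. Over all genes the highest counts in these comparisons were 119, 273 and 48, each with DESeq2. In DCN against Sham the main count was 6 members and 1387 genes. It became 12 members and 4259 genes with all 24 in vivo libraries in 1 model, and 3 members and 615 genes with the replicate block. At an adjusted p under 0.001 it was 0 members and 21 genes, and in day libraries 0 members and 346 genes. When single libraries were left out it ranged from 3 to 6 members and from 598 to 1549 genes. It was 3 members without DCN night replicate 1, 2 or 3. In SCGX against Sham the main count was 3 members and 1143 genes. It became 11 members and 3473 genes with all 24 libraries, 6 and 2089 with DESeq2, and 5 and 3307 in night libraries. It was 7 members and 3955 genes in night libraries with Sham night replicate 3 left out. With Control in place of Sham it was 5 members and 2477 genes. Both of these settings were chosen after seeing the data. At an adjusted p under 0.001 it was 0 members and 44 genes. The count stayed at 3 members with the replicate block, with 615 genes. When single libraries were left out it ranged from 2 to 3 members and from 659 to 1174 genes. In SCGX night/day the main count was 0 members and 278 genes. It became 2 members and 611 genes with DESeq2, and 2 members and 658 genes with no count filter. When single libraries were left out it ranged from 0 to 1 members (1 without SCGX day replicate 2) and from 76 to 277 genes. The cause of these shifts was not tested. Replicate numbers did not appear to pair the libraries. The deviations of same-numbered libraries correlated between -0.06 and 0.11 in DCN night/day. In DCN against Sham, where the block changed the count, their mean correlations were -0.116, 0.0505 and -0.1, with a single pair as low as -0.483. The replicate block was kept as an alternative.

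The number of members was 33 with TMM-scaled CPM, 29 with group means, 30 with a pseudocount of 0.1 and 34 with a pseudocount of 1, and these shared 25, 22, 22 and 25 genes with the 29. It ranged from 26 to 39 when single libraries were left out, the highest without NE replicate 1. TMM moved the median NE log2 ratio of all genes from -0.11 to -0.02 and the median Control night/day log2 ratio from -0.19 to -0.09. The fold changes of ENSRNOG00000024120 and ENSRNOG00000016483 kept their direction under every alternative in which they were tested; the first did not pass the filter of 10 read-pairs in every library. In day libraries alone neither was called against Sham, with log2 fold changes of -1.52 and -1.23 in DCN and -1.30 and -0.56 in SCGX. In night libraries alone the first was not called either, with -1.58 in DCN and -1.03 in SCGX, so that in DCN the values stayed near those over both times (-1.57 and -1.31). At in vivo depths of 12985072 to 18504240 read-pairs, night/day intervals were wide for members under about 1 CPM: in DCN the log2 fold change of member 24 was -0.40 with a 95% interval from -1.87 to 1.06.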
